A study of Mus musculus with 36 samples.

Results

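The guanylate-binding proteins (GBPs) are large GTPases that macrophages make in response to interferons. The members described here are the 8 genes Gbp2 to Gbp9, chosen by symbol in the deposited gene table, which holds 36528 genes; 15685 of these, all 8 members among them, had enough reads to be tested. The samples were bone marrow-derived macrophages of mice, with 3 mice in each of 12 groups, and their polyadenylated RNA was sequenced. Loxp cells came from COP1-floxed Rosa26-CreERT2 mice and WT cells from COP1-wt Rosa26-CreERT2 mice, so both genotypes carried the inducible Cre recombinase at Rosa26. The series title describes the Loxp cells as knockout; whether tamoxifen was given is not stated in the labels. In each genotype there were 5 groups of cells treated on day 7 of differentiation with LPS at 100 ng/ml, labelled T2.5 to T13, and 1 group of untreated cells, labelled T0. The labels give no unit for these times.

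GBPs belong to the dynamin superfamily. They bind and hydrolyse GTP, assemble on the membranes of bacteria and of vacuoles that hold pathogens, and in mice the chromosome 3 cluster is needed for full activation of caspase-11, the intracellular sensor of lipopolysaccharide (LPS), by Gram-negative bacteria. LPS, a component of the bacterial outer membrane, is detected outside the cell by TLR4, which drives NF-kB and, through interferon beta, the interferon receptor. Cop1, listed in the table under its older symbol Rfwd2, encodes a ubiquitin ligase that targets transcription factors such as c-Jun. Its level was lower in every Loxp group than in the matching WT group, with 6.21 ± 0.40 CPM (counts scaled to library size) in Loxp cells and 10.1 ± 0.27 in WT cells at T0 (SD, n = 3 each) and log2 fold changes of -0.70 to -1.21 over the 6 times (Rfwd2, adjusted p at most 0.00014). Reads outside the floxed part would still be counted.

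The members lie in 2 clusters of the mouse genome (GRCm38.p6, RefSeq, counted from 1). Gbp5, Gbp7, Gbp3 and Gbp2 lie in this order, with Gbp2b between the last pair, on the plus strand of chromosome 3 over 141.1 kb (chr3:142496934-142638008). Gbp8, Gbp9, Gbp4 and Gbp6 lie on the minus strand of chromosome 5 over 334.0 kb (chr5:105012513-105346476), with Gbp10 between Gbp4 and Gbp6 and the transcribed pseudogene Gbp11 beyond Gbp6. All 8 members are protein-coding. Gbp2 spans the microRNA gene Mir6381 and Gbp3 overlaps Gm40158, and without a stated strand setting their reads cannot be told apart.

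Promoter sequences were matched by symbol in the RefSeq table (GRCm38.p6) for 4 of the 8 members, those of chromosome 3. They are shown because they include Gbp2, Gbp5 and Gbp3, the members with the highest RNA under LPS, and because each holds a match to the core of the interferon-stimulated response element, a sequence bound by interferon regulatory factors. Each line runs 5′ to 3′ on the plus strand, from 250 bases before the annotated start to 50 bases from it, and capitals mark that core, GAAA followed by any 2 bases and GAAA, here read on the opposite strand. The windows are chr3:142496684-142496983 for Gbp5, chr3:142530086-142530385 for Gbp7, chr3:142559794-142560093 for Gbp3 and chr3:142620413-142620712 for Gbp2.
Gbp5: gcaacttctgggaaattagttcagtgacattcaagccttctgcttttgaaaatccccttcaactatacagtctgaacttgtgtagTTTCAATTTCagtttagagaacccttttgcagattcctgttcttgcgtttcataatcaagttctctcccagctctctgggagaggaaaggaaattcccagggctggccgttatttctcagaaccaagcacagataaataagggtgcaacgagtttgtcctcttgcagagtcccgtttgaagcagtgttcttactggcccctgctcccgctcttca
Gbp7: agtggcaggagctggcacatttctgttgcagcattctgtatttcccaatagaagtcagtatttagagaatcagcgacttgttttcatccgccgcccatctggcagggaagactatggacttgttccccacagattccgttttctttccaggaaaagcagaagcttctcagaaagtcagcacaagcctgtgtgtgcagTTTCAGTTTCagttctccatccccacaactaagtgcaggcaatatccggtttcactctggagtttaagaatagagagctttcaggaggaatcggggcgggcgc
Gbp3: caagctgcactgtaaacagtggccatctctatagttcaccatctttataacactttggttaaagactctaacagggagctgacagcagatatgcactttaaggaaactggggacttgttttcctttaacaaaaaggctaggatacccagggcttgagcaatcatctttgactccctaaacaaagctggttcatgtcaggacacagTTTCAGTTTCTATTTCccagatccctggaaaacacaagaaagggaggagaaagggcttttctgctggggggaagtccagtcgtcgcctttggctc
Gbp2: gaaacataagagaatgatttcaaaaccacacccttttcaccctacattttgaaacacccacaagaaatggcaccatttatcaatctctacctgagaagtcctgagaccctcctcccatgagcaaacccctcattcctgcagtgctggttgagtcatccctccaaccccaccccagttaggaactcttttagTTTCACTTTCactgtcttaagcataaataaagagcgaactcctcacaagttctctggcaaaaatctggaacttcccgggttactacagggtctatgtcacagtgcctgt

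The match lay at -165 to -156 in Gbp5, at -53 to -44 in Gbp7 and at -59 to -50 in Gbp2, with the start counted as 0. Gbp3 had a pair of overlapping matches, at -45 to -36 and -39 to -30, and its other annotated start had none. On either strand, 3.44% of the 32851 windows of the same length in the table held this core. The core TTCNNNGAA of the gamma-activated site occurred 2 times each in Gbp5 and Gbp7, and 8.3% of all windows held it. A match to the consensus of kappa B sites occurred in Gbp5, and in Gbp2 just past the start, against 8.46% of all windows. Gbp2b, the neighbour of Gbp2 that was almost silent in these cells (at most 0.659 RPKM), also held the interferon-stimulated core, at -137 to -128. These are matches of letters, not measured binding.

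Only uniquely aligning reads were counted, and the members resemble each other. Of the 50-base stretches of each longest coding transcript (GENCODE M21), Gbp6 shared 70.3% with transcripts of other Gbp genes, Gbp8 21.2%, Gbp4 12.8%, Gbp9 9.56%, Gbp3 4.79%, Gbp7 2.28% and Gbp2 2.07%, while Gbp5 shared 0. Gbp10, whose level stayed at or below 0.632 RPKM, shared 73.9%. Over transcripts of all genes the share was 90.2% for Gbp6, all of it with Gm43302, an annotation at the same locus. It was 82.5% for Gbp10 (79.2% with Gm43302) and 12.8% for Gbp7 (10.6% with the pseudogene Gm43802, which lies within Gbp7). Levels of Gbp6, Gbp10 and Gbp8 are uncertain between these genes, and reads of Gbp7 may be lost or split in the stretch shared with Gm43802.

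Total counts per library were 24069541 to 40298009. In the Loxp T9 library of replicate 2 only 15045 genes had a read, against 17622 to 19693 elsewhere, and the 6 WT libraries of replicate 2 held reads of both Xist (25.6 to 89.8 CPM; at most 0.90 in the other libraries) and Y-linked genes. Macrophage markers (8 of 8 detected) summed to 23354 to 24480 CPM in Loxp and 18044 to 19719 CPM in WT cells at T0, and 3 of these 8 genes were higher in Loxp cells. Stromal and endothelial markers summed to 74.9 to 124 CPM in Loxp and 230 to 541 CPM in WT cells at T0, and 6 of these 8 genes were lower in Loxp cells. Lymphocyte and NK cell markers summed to at most 0.494 CPM at T0, with Ncr1 and Ifng at 0 reads in both genotypes. Granulocyte markers summed to 11.1 to 12.7 CPM in Loxp and 11.9 to 73.9 CPM in WT cells (4 of 5 tested genes lower in Loxp), and dendritic cell markers to 28.4 to 45.0 CPM in Loxp and 39.1 to 94.7 CPM in WT cells (2 of 4 lower). Of all 15685 tested genes, 878 were higher and 623 lower in Loxp than in WT cells at T0.

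Under LPS every member rose at every time in both genotypes. Levels are given as RPKM, reads per kilobase of gene model relative to a depth scaled by the authors' size factors, which allows comparison between genes. The 8 members together held 0.00883 to 0.0133% of a library's counts in Loxp cells and 0.00477 to 0.00700% in WT cells at T0, and 0.828 to 0.947% in Loxp and 0.921 to 0.948% in WT cells at T9. All 8 members passed the test (edgeR quasi-likelihood, adjusted p under 0.05) as higher than T0 at each of the 5 LPS times in Loxp cells, where, in order of time, 29%, 31.7%, 32.6%, 32.5% and 30.8% of all tested genes were higher. The same held in WT cells, where 28.8%, 31.5%, 32.1%, 32.3% and 32.6% of all tested genes were higher. The members' median log2 fold change over T0 was 4.40, 6.21, 7.08, 7.04 and 6.12 in Loxp cells and 5.63, 7.16, 7.81, 7.87 and 7.22 in WT cells at these times, against medians of -0.15 to -0.01 over all tested genes. For every member and time the LPS libraries did not overlap the T0 libraries of the same genotype (CPM). Of all tested genes, 34%, 34.6%, 34.8%, 32.2% and 33.8% lay wholly above T0 in Loxp cells at these times, and 28.3%, 30.2%, 30.8%, 31.7% and 32% in WT cells. The 8 calls at each time were also made without WT replicate 2 and without the Loxp T9 library of replicate 2.

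**Figure D1:**
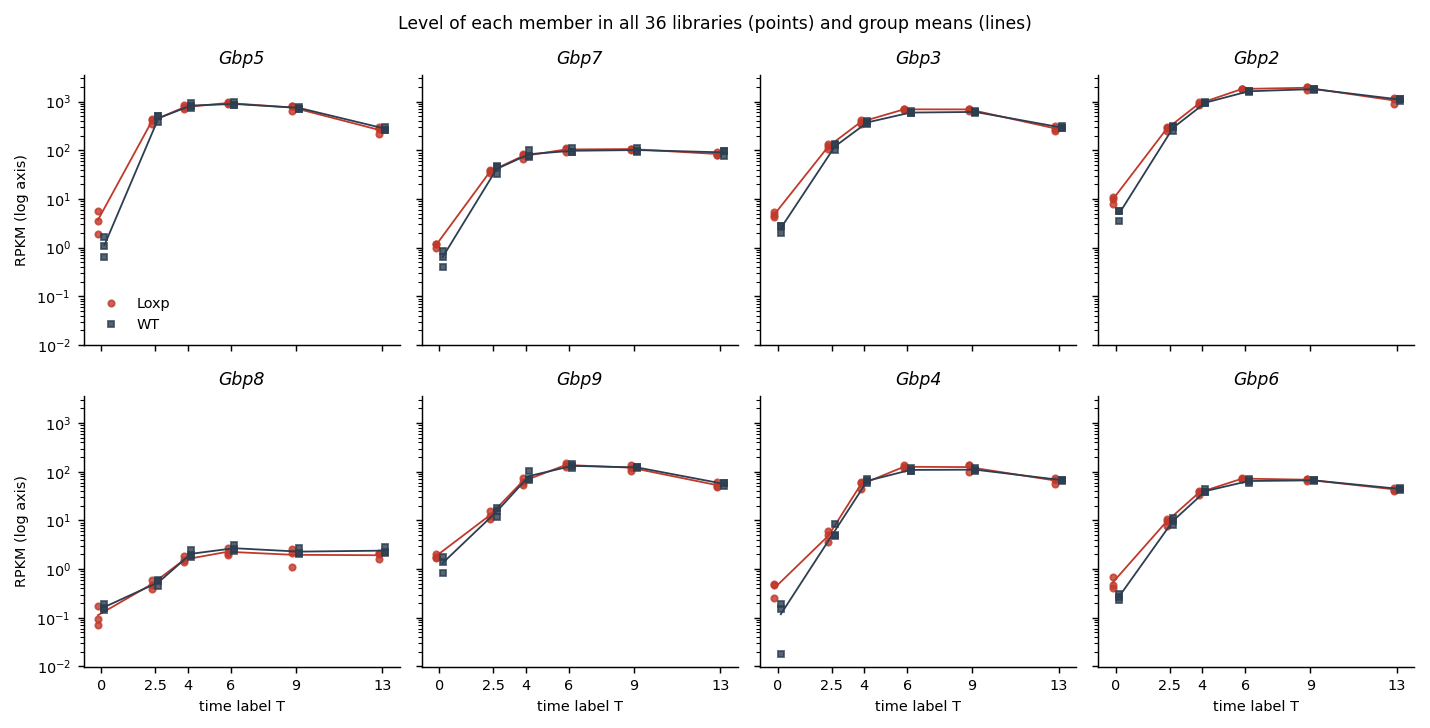
RPKM (log axis) of each member against the time label, with a point for each of the 36 libraries (circles Loxp, squares WT) and lines through the group means. Every member rises steeply between T0 and T4, Gbp8 stays at or below 3.10 RPKM, and the genotypes stand apart at T0 for 6 of the 8 genes.

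Gbp2 and Gbp5 encode GBPs that carry a C-terminal CaaX motif for attachment of a lipid, which anchors them in membranes. In mice Gbp2 restricts Toxoplasma and helps release bacterial DNA to the sensor AIM2, and Gbp5 has been linked to NLRP3 inflammasome assembly. Gbp2 had 245, 280 and 298 RPKM in Loxp and 294, 252 and 321 RPKM in WT cells at T2.5. At T4 it had 855, 876 and 1002 RPKM in Loxp and 996, 930 and 930 RPKM in WT cells. At T9, its highest time, it had 2011, 1753 and 2011 RPKM in Loxp and 1829, 1820 and 1772 RPKM in WT cells. These levels were the highest of the family from T4 on. The rise of Gbp2 at T9 over T0 was 192-fold in Loxp cells (log2 fold change 7.58 ± 0.18, SE) and 348-fold in WT cells (8.44 ± 0.19).

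Gbp5 was the highest member at T2.5. It had 351, 409 and 441 RPKM in Loxp and 494, 380 and 494 RPKM in WT cells at T2.5, above Gbp2 in each of these 6 libraries. At T6, its highest time, it had 916, 911 and 978 RPKM in Loxp and 983, 856 and 847 RPKM in WT cells. At T13 it had 267, 219 and 301 RPKM in Loxp and 306, 262 and 262 RPKM in WT cells, lower than in any T2.5 library. The ratio of Gbp5 to Gbp2 RPKM turned round between T2.5 and T4: it was 1.43 to 1.48 in Loxp and 1.51 to 1.68 in WT cells at T2.5, 0.830 to 0.870 in Loxp and 0.812 to 0.930 in WT cells at T4, and 0.240 to 0.253 in Loxp and 0.235 to 0.265 in WT cells at T13. The rise of Gbp5 over T0 at T2.5 was 108-fold in Loxp cells (6.76 ± 0.30) and 403-fold in WT cells (8.65 ± 0.33), the largest of the family at that time in both genotypes.

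**Figure D2:**
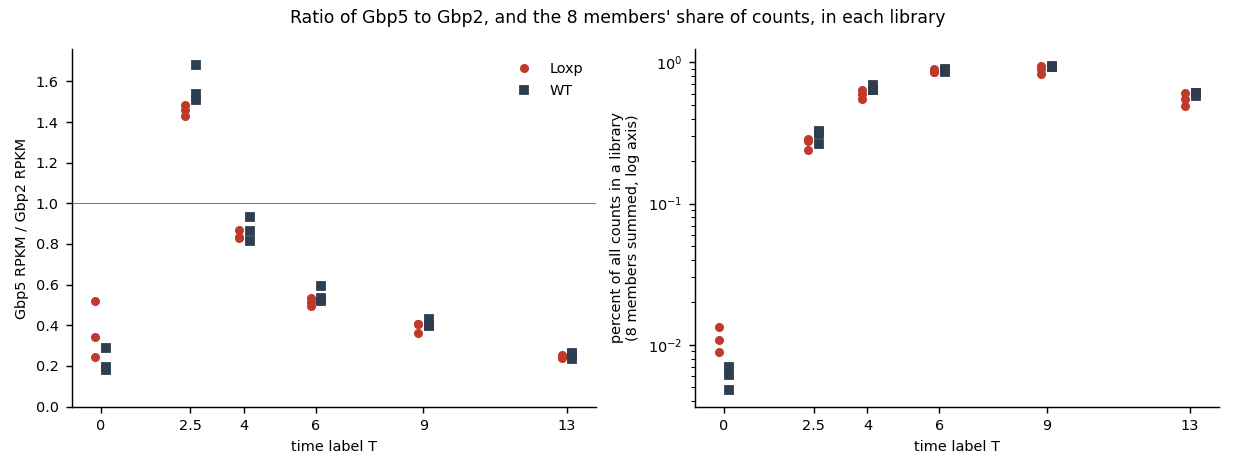
Left, the ratio of Gbp5 to Gbp2 RPKM in each library (grey line, equal levels); right, the percent of a library's counts that fell on the 8 members together (log axis), both against the time label, with circles for Loxp and squares for WT. The ratio is above 1 in the 6 libraries of T2.5 only, and the members' share reaches its highest values at T9.

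Gbp3 and Gbp7 complete the chromosome 3 members. Gbp3 followed Gbp2 at a lower level, with 656 to 710 RPKM in Loxp and 591 to 640 RPKM in WT cells at T9. Gbp7, which in mice has been tied to the assembly of the NADPH oxidase on phagosomes, was early and lasting: it had 34.7% of its own peak in Loxp and 41.0% in WT cells at T2.5, and still 79.3% in Loxp and 89.5% in WT cells at T13. Gbp5 had 42.8% of its peak in Loxp and 51.0% in WT cells at T2.5, and 28.1% in Loxp and 30.9% in WT cells at T13. Both were ahead of the other members at T2.5, and at T13 Gbp5 had the lowest share of its peak of the 8 genes.

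On chromosome 5, Gbp4 had 3.83% of its peak in Loxp and 5.54% in WT cells at T2.5, the lowest share of the 8 genes. Between T2.5 and T4 it rose 11.1-fold in Loxp cells (3.48 ± 0.26) and 10.5-fold in WT cells (3.39 ± 0.26), the largest step of any member in either genotype. Gbp9 was at 9.36% of its peak in Loxp and 11.5% in WT cells at T2.5 and reached 126 to 149 RPKM in Loxp and 121 to 142 RPKM in WT cells at T6. Gbp6, which has been linked to defence against intracellular bacteria in mouse macrophages, reached 70.8 to 75.0 RPKM in Loxp and 60.0 to 69.6 RPKM in WT cells at T6.

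Gbp8 stood apart in level. It had 0.399 to 0.608 RPKM in Loxp and 0.439 to 0.591 RPKM in WT cells at T2.5, and 1.94 to 2.71 RPKM in Loxp and 2.37 to 3.10 RPKM in WT cells at T6. Its largest rise over T0 was 19.1-fold in Loxp cells (4.25 ± 0.29) and 15.1-fold in WT cells (3.91 ± 0.28), on 10 to 271 reads a library. Gbp11 reached 4.77 RPKM, and Gbp2b and Gbp10 had at most 1 and 2 reads in any T0 library and remained under 1 RPKM.

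**Figure D3:**
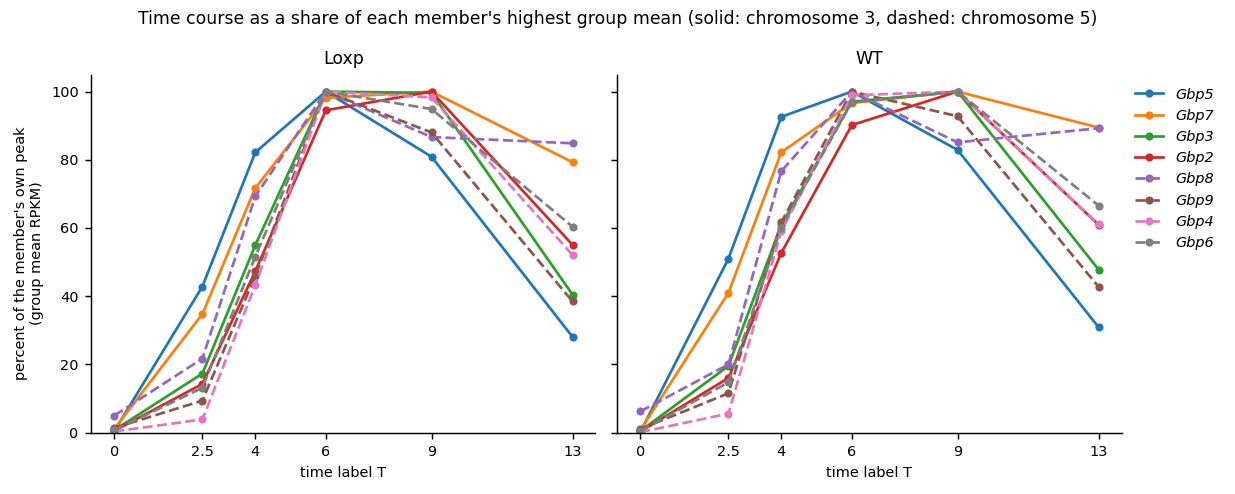
Group mean RPKM of each member as a percent of its own highest group mean, against the time label, in Loxp (left) and WT cells (right), with solid lines for chromosome 3 and dashed lines for chromosome 5. Gbp5 and Gbp7 lead at T2.5 and Gbp4 trails at 3.83% in Loxp and 5.54% in WT cells. At T13 Gbp5 has fallen furthest, while Gbp7 and Gbp8 stay near their peaks.

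The order of levels changed with time, and by group means it was the same in both genotypes at T2.5, T4, T6 and T13 but not at T0 and T9. At T0 Gbp2 was highest, with 7.71, 11 and 10.1 RPKM in Loxp and 3.53, 5.77 and 5.54 RPKM in WT cells, followed by Gbp3. Then came Gbp5, Gbp9, Gbp7, Gbp6, Gbp4 and Gbp8 in Loxp cells, and Gbp9, Gbp5, Gbp7, Gbp6, Gbp8 and Gbp4 in WT cells, where Gbp9 overlapped Gbp5, Gbp5 overlapped Gbp7 and Gbp8 overlapped Gbp4; in Loxp cells Gbp3 overlapped Gbp5, Gbp5 overlapped Gbp9 and Gbp6 overlapped Gbp4. At T2.5 the order in both genotypes was Gbp5, Gbp2, Gbp3, Gbp7, Gbp9, Gbp6, Gbp4 and Gbp8; no neighbours overlapped in Loxp cells, and Gbp6 and Gbp4 overlapped in WT cells. At T6 it was Gbp2, Gbp5, Gbp3, Gbp9, Gbp4, Gbp7, Gbp6 and Gbp8 in both, where Gbp9 and Gbp4 overlapped in Loxp cells and Gbp4 and Gbp7 in WT cells. At T9 Gbp4 stood before Gbp9 in Loxp cells and after it in WT cells, and they overlapped in both. At T13 it was Gbp2, Gbp3, Gbp5, Gbp7, Gbp4, Gbp9, Gbp6 and Gbp8 in both, where Gbp3 and Gbp5 overlapped in both genotypes and Gbp4 and Gbp9 in Loxp cells. Gbp7 thus moved from the sixth place at T6 to the fourth at T13. Overlap here is of the ranges over the 3 libraries of a group and does not compare genes within a library. Within every T13 library Gbp3 was above Gbp5, and within every Loxp T13 library Gbp4 was above Gbp9.

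From T2.5 to T4 all 8 rose in Loxp cells (15.4% of all genes rose) and in WT cells (15.3%). From T4 to T6 Gbp2, Gbp3, Gbp4, Gbp6 and Gbp9 rose in Loxp cells (15.4% of all genes) and in WT cells (12.8%). Gbp5, Gbp7 and Gbp8 did not pass; Gbp7 had a log2 fold change of 0.42 ± 0.16 in Loxp (adjusted p = 0.0519) and 0.21 ± 0.16 in WT cells (adjusted p = 0.408). With each mouse as a block, Gbp7 (adjusted p = 0.00587) and Gbp8 (adjusted p = 0.0484) passed this step in Loxp cells. In a fit to the Loxp libraries of T4 and T6 alone, all 8 passed. Gbp7 also passed in Loxp cells with DESeq2 (adjusted p = 0.0237) and limma (adjusted p = 0.0121). In edgeR it passed with DESeq2 size factors (adjusted p = 0.0335), without a filter (adjusted p = 0.0438) and with a block for the replicate number (adjusted p = 0.0376). Without any 1 of the WT mice, whose libraries enter the shared spread, Gbp7 passed in Loxp cells too (adjusted p 0.00518 without WT replicate 2, 0.0417 without replicate 1 and 0.048 without replicate 3). In WT cells Gbp4 did not pass without WT replicate 2 (adjusted p = 0.105), without replicate 3 (adjusted p = 0.102) or with DESeq2 (adjusted p = 0.0618).

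From T6 to T9 no member passed in Loxp cells (16% of all genes changed) or in WT cells (11.1%) by edgeR; none had an unadjusted p under 0.05, and none passed by DESeq2 or limma. From T9 to T13 Gbp2, Gbp3, Gbp4, Gbp5, Gbp6 and Gbp9 fell in Loxp cells (28.3% of all genes fell) and in WT cells (27.5%). Gbp5 fell most, by 1.53 on the log2 scale in Loxp cells (SE 0.23, adjusted p = 1.87e-06) and by 1.38 in WT cells (SE 0.23, adjusted p = 8.92e-06). Gbp7 changed by -0.33 ± 0.16 in Loxp cells (adjusted p = 0.0819, or 0.0148 with each mouse as a block and 0.0365 without WT replicate 2) and by -0.11 ± 0.16 in WT cells (adjusted p = 0.575). In Loxp cells this fall of Gbp7 also passed with limma (adjusted p = 0.0394) and in an edgeR fit to the 2 groups alone (adjusted p = 0.0208). The fall of Gbp4 in WT cells did not pass without WT replicate 2 (adjusted p = 0.0777), without replicate 3 (adjusted p = 0.0599) or with library totals in place of TMM (adjusted p = 0.0675).

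Before LPS, 6 of the 8 members were higher in Loxp than in WT cells. Gbp5 had 1.87, 5.73 and 3.46 RPKM in Loxp and 0.641, 1.65 and 1.08 RPKM in WT cells, a log2 fold change of 1.75 ± 0.26 (adjusted p = 4.77e-05). Gbp4 had 0.255, 0.492 and 0.471 RPKM in Loxp and 0.0178, 0.188 and 0.149 RPKM in WT cells, a log2 fold change of 1.85 ± 0.37 (adjusted p = 0.00116). The lowest WT value of Gbp4, in replicate 1, rests on 5 reads. In these genes every Loxp library was above every WT library.

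Gbp2, with the T0 values given above, differed by 0.97 ± 0.14 on the log2 scale (adjusted p = 2.83e-05). Gbp3 had 4.26, 5.35 and 4.78 RPKM in Loxp and 1.96, 2.74 and 2.83 RPKM in WT cells, a log2 fold change of 0.95 ± 0.12 (adjusted p = 6.43e-06). Gbp6 had 0.408, 0.692 and 0.474 RPKM in Loxp and 0.235, 0.310 and 0.269 RPKM in WT cells, a log2 fold change of 0.97 ± 0.17 (adjusted p = 0.000324). Gbp7 had 1.21, 1.20 and 0.984 RPKM in Loxp and 0.642, 0.403 and 0.863 RPKM in WT cells, a log2 fold change of 0.83 ± 0.19 (adjusted p = 0.00347). None of these 4 genes overlapped between the genotypes; with Gbp4 and Gbp5 that makes 6 of 8 members wholly above WT (CPM), where 13% of all tested genes were.

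The other two did not pass. Gbp9 had 1.72, 2.06 and 1.79 RPKM in Loxp and 1.39, 0.836 and 1.76 RPKM in WT cells (0.48 ± 0.20, adjusted p = 0.151). Gbp8 had 0.0722, 0.0929 and 0.173 RPKM in Loxp and 0.146, 0.159 and 0.194 RPKM in WT cells (-0.55 ± 0.35, adjusted p = 0.388). Both overlapped between the genotypes. The background was 5.6% of all tested genes higher in Loxp cells at T0, and the median log2 fold change was 0.96 over the members and 0.03 over all tested genes.

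These calls rest on a spread shared over all 36 libraries: in a fit to the 6 T0 libraries alone the log2 fold changes were nearly the same (0.91 for Gbp2, 1.77 for Gbp4 and 1.68 for Gbp5), but no member passed (adjusted p 0.0724 to 0.31 for the 6) and 9 genes passed in all. Chi-square per degree of freedom between libraries of a group reached 148 in WT T0, against at most 41.9 in any other group. With limma on log2(RPKM + 1), 3 members passed. The 6 passed also when any mouse was left out, including WT replicate 2, and Gbp9 joined them without WT replicate 3 (adjusted p = 0.0495). Beside this difference the Loxp cells had higher macrophage marker sums, lower stromal and endothelial sums, and granulocyte and dendritic sums that overlapped those of WT cells with 4 of 5 and 2 of 4 genes lower (623 of 15685 over all tested genes). Under LPS at T2.5 macrophage markers summed to 28838 to 30231 CPM in Loxp and 23508 to 25371 CPM in WT cells. Stromal and endothelial markers then summed to 89.5 to 121 CPM in Loxp and 237 to 543 CPM in WT cells. At T13 the macrophage sums overlapped between the genotypes and the stromal and endothelial sums did not. The part of these markers in the T0 difference was not tested. In bulk RNA fewer cells of a type and less RNA per cell cannot be told apart. Ifng, whose product is the strongest known inducer of the family, had 0 reads in all 6 T0 libraries, which allows up to 0.0780 CPM in the library where a read weighs most (3 reads, counting error only).

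Under LPS no member passed between the genotypes at any time by edgeR, DESeq2 or limma. The background of genes that differed in either direction was 3.9% at T2.5, 4.86% at T4, 7.8% at T6, 10.4% at T9 and 3.1% at T13. An unadjusted p under 0.05 was seen once, for Gbp3 at T6 (0.26 ± 0.11, adjusted p = 0.191), when it had 661, 705 and 716 RPKM in Loxp and 633, 581 and 571 RPKM in WT cells. At T6 the libraries of 4 members, Gbp2, Gbp3, Gbp4 and Gbp6, lay wholly above WT (CPM), where 18.7% of all tested genes did. Gbp3 also lay wholly above WT at T9, and Gbp8 wholly below WT at T13. At T9 and T13 the share of all genes was not counted, so nothing is concluded from these cases. The 95% intervals bound the differences: at T6 they ran from -0.08 to 0.47 for Gbp2, from 0.02 to 0.49 for Gbp3, from -0.23 to 0.73 for Gbp4 and from -0.06 to 0.46 for Gbp6. For Gbp2 they ran from -0.31 to 0.24 at T2.5 and from -0.36 to 0.19 at T13, and for Gbp5 from -0.62 to 0.32 at T2.5 and from -0.57 to 0.36 at T13. With the counts of each mouse summed, 0 of 8 members passed (7.33% of genes did by edgeR). Gbp8 alone had an unadjusted p under 0.05 there (-0.37 ± 0.12, adjusted p = 0.125), and DESeq2 and limma called none.

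**Figure D4:**
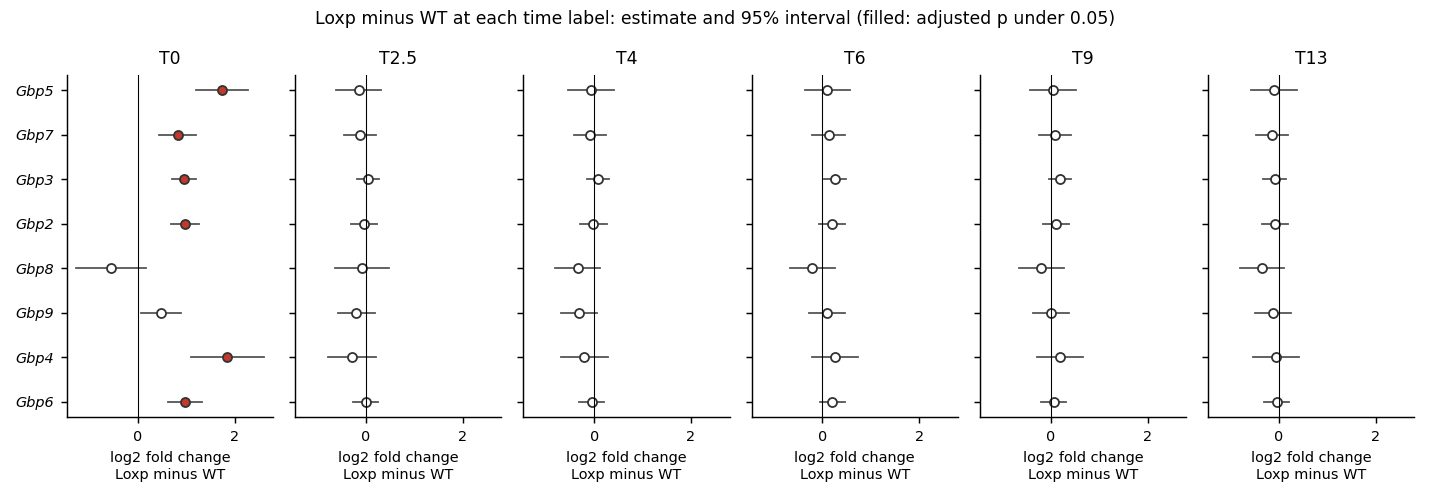
Log2 fold change of Loxp minus WT for each member (rows) at each time label (panels), with the 95% interval as a line and filled points where the adjusted p was under 0.05. At T0 6 points are filled and lie between 0.83 and 1.85; under LPS no point is filled and estimates lie between -0.35 and 0.26.

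The response to LPS differed in size between the genotypes for some members. Over the 5 LPS times tested jointly, Gbp3 (adjusted p = 0.00895), Gbp2 (adjusted p = 0.0166) and Gbp5 (adjusted p = 0.0166) passed the interaction test, against 0.599% of all genes. The rise over T0 was smaller in Loxp than in WT cells at T2.5 for 5 members (0.363% of all genes), at T4 for 5 (0.293%), at T6 for 1 (0.172%), at T9 for 4 (0.465%) and at T13 for 5 (0.625%). These terms share the T0 libraries with each other and with the T0 comparison, so they are not separate evidence. With each mouse as a block Gbp4 (adjusted p = 0.0473), Gbp6 (adjusted p = 0.023) and Gbp7 (adjusted p = 0.0126) passed too. Without WT replicate 1, WT replicate 3, Loxp replicate 2 or Loxp replicate 3, none of the 8 did. Gbp5 did not pass with limma on log2(RPKM + 1) (adjusted p = 0.0779).

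Genes of interferon signalling, which act upstream of the family, rose too. Of 17 tested genes of interferon signalling, 17 rose at T2.5 in both genotypes (29% of all genes in Loxp and 28.8% in WT cells). At T6 and T9 16 rose and 1 fell in both genotypes, and at T13 15 rose and 1 fell, where 30.8% of all genes rose in Loxp and 32.6% in WT cells. Ifnb1, which encodes interferon beta, was highest at T2.5, with 150 ± 43.8 CPM in Loxp and 89.8 ± 14.7 CPM in WT cells at T2.5 (SD, n = 3 each), and 1.97 ± 1.15 CPM in Loxp and 2.69 ± 0.18 CPM in WT cells at T13. Irf1, a transcription factor that is needed for full Gbp induction in mice, had 1838 ± 137 CPM in Loxp and 2053 ± 115 CPM in WT cells at T2.5 and 378 ± 43.3 CPM in Loxp and 386 ± 28.8 CPM in WT cells at T13. Ifng stayed at or below 0.246 CPM in every library.

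At T0 6 of these 17 genes were higher in Loxp cells, with a median log2 fold change of 0.35 over the list (all genes 0.03); 5.6% of all genes were higher. Among them was Usp18, an inhibitor of interferon receptor signalling (1.01 ± 0.13, adjusted p = 4.79e-06). Calls at T0 rest on the spread shared over all 36 libraries, and only 9 genes passed in the fit to the T0 libraries alone. Irf1 (0.16 ± 0.12, adjusted p = 0.469) and Ifnb1 (1.42 ± 0.91, adjusted p = 0.392) did not pass, and Ifnb1 had 30 reads over the Loxp and 11 over the WT libraries. Ifngr1, a subunit of the interferon gamma receptor, did not pass either (-0.17 ± 0.07, adjusted p = 0.148), and in WT cells it rose at T2.5 (0.64 ± 0.07) and fell by 0.72 on the log2 scale at T13. With counts summed per mouse none of 18 tested passed. These sums add all 6 times, so they are not a test of T0. Usp18 in Loxp cells, for example, had 2539 reads at T0 and 122827 at T6.

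Of 13 other interferon-inducible GTPases, all rose at every LPS time in both genotypes (28.8 to 32.6% of all genes), with medians of 5.24 in Loxp and 5.97 in WT cells at T13. At T0 10 of the 13 were higher in Loxp cells (median log2 fold change 0.71), where 5.6% of all genes were; since only 9 genes passed in the fit to the T0 libraries alone, this count does not hold there. Iigp1, an immunity-related GTPase that acts on pathogen vacuoles, had 7.73 ± 3.57 CPM in Loxp and 2.73 ± 0.99 CPM in WT cells (1.51 ± 0.23, adjusted p = 5.92e-05). Igtp, which guards host membranes against the effector GTPases, Ifi47 and Tgtp2 were higher too (0.52, 0.68 and 0.74; adjusted p = 0.00182, 3.84e-05 and 0.0115). Tgtp1 (0.29 ± 0.53) and F830016B08Rik (0.25 ± 0.44) did not pass at T0. Tgtp1 was the only 1 of the 13 to pass on counts summed per mouse, lower in Loxp cells (-0.49 ± 0.10, adjusted p = 0.0286). Of all genes 7.33% passed there, so this count is near the background.

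A list of 11 genes covered the caspase-11 (non-canonical) pathway, other inflammasomes and their products. Of these, 10 rose at T13 in both genotypes (30.8% of all genes in Loxp and 32.6% in WT cells). In WT cells 1 fell at T13 (34.7% of all genes). Casp4, which encodes caspase-11 in the mouse, had 186 ± 13.7 CPM in Loxp and 179 ± 6.21 CPM in WT cells at T13 and did not pass between genotypes at T0 (0.14 ± 0.09, adjusted p = 0.386). At T0 5 of the 11 (5.6% of all genes) were higher in Loxp cells, among them Il1b, which encodes the cytokine IL-1 beta (1.56 ± 0.32, adjusted p = 0.00134), the sensor Nlrp3 (0.80 ± 0.11, adjusted p = 1.34e-05) and Casp1 (0.31 ± 0.10, adjusted p = 0.0346). These calls too rest on the shared spread, and only 9 genes passed in the fit to the T0 libraries alone.

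A list of enzymes that act on CaaX proteins such as Gbp2 and Gbp5 did not rise as a group. It holds genes of lipid attachment together with methyltransferase and protease genes. Of 6 genes, 1 rose and 4 fell at T9 in Loxp cells, and 2 rose and 4 fell in WT cells; of all genes 32.5% rose and 38.4% fell in Loxp cells, and 32.3% rose and 37.9% fell in WT cells. At T13 the carboxyl methyltransferase gene Icmt was lower in WT cells by -0.51 ± 0.07 on the log2 scale, Fnta, the subunit shared by both prenyl transferases, was higher by 0.38 ± 0.08, and so was Pggt1b (0.30 ± 0.13, adjusted p = 0.0338); Fntb (-0.25 ± 0.17) and the protease gene Zmpste24 (0.11 ± 0.13) did not pass. None of the 6 passed between genotypes at T0 or on summed counts. Of 15 genes of ubiquitin-like conjugation, part of which directs GBPs to vacuoles, 7 rose and 4 fell at T13 in both genotypes. Of all genes 30.8% rose and 35% fell in Loxp cells and 32.6% rose and 34.7% fell in WT cells. At T9 8 of the 15 rose and 5 fell in both genotypes, beside the shares of all genes given above for T9. Whether the list differs from the background was not tested. At T0 4 of the 15 were higher in Loxp cells (5.6% of all genes). Isg15 rose by 7.37 ± 0.20 on the log2 scale, Trim21 by 4.05 ± 0.12 and Ube2l6 by 3.95 ± 0.11 at T13 in WT cells, while Atg7 fell by 0.70. Isg15 (0.65 ± 0.16), Trim21 (0.39 ± 0.11), Atg12 (0.36 ± 0.08) and Atg3 (0.26 ± 0.07) were those higher at T0. The same limit holds for them, as only 9 genes passed in the fit to the T0 libraries alone. Atg7 was the only 1 of the 15 to pass on summed counts (0.21 ± 0.05, adjusted p = 0.0412). Of all genes 7.33% passed there, so this count is near the background.

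Over the 12 group means, which share libraries with each other's scaling, the 5 genes whose log2 level was most like the mean of the 8 members were Tmco3, Ddx58, Themis2, Mir6381 and Tap1, with Pearson's r of 0.9979 to 0.9989. Mir6381 lies within Gbp2, so its reads cannot be told apart from those of Gbp2. The nearest gene of each member was Ddx58 for Gbp2, Car13 for Gbp3, Trim12c for Gbp4, Rsad2 for Gbp5, AW112010 for Gbp6, Igtp for Gbp7, Pla1a for Gbp8 and Atxn7l1 for Gbp9. Among the members themselves, r over the group means was highest between Gbp2 and Gbp6 (0.999) and lowest between Gbp5 and Gbp8 (0.856). These values are descriptive.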

How the data were processed

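Polyadenylated RNA of 36 libraries (6 mice, 6 times) was sequenced, and per the labels the replicates came from separate individuals, each sampled at every time. The deposited counts are, per the file headers, uniquely aligning reads per Entrez gene model, not normalised, and the deposited RPKM values are RPKM adjusted by size factors. A further deposited table gives gene model sizes and symbols, an other kind of value, per the file headers. The table of each library repeated these values in 36 of 36 cases, within a relative tolerance of 1e-06. The submitters' processing notes name the aligner GSNAP and the build GRCm38; for its version, the annotation and the strand setting, nothing is given in the sources used here.

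The test was edgeR 4.0.16 in R 4.3.3: filterByExpr over the 12 groups (15685 genes, or 17182 for counts summed per mouse), TMM, a model with 1 mean per group and the quasi-likelihood test, with Benjamini-Hochberg adjustment over all genes tested and calls at 0.05. A log2 fold change's size divided by the root of its F gives its standard error, and 95% intervals use the test's degrees of freedom. The code was tested on simulated data. CPM in the text are scaled by TMM. Alternatives were DESeq2 size factors, library totals, no filter, DESeq2 1.42.0, limma-trend 3.58.1 on log2(RPKM + 1), kept where RPKM averaged 0.1 or more, blocks for the replicate number or the mouse, fits to the groups compared, and leaving out each mouse or the Loxp T9 replicate 2 library.

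The members, lists and tests were chosen with earlier results of these data known. Named genes were all members, other Gbp genes, Cop1, Ifnb1, Ifng, Irf1, up to 3 genes of each list by adjusted p at T13 in WT cells and on summed counts, and the genes nearest in pattern; some genes that this rule names are not reported here. Listed symbols that the table holds under older names were matched by Entrez ID (Emr1 for Adgre1). The labels give the same individual number at each time within a genotype, so libraries of a mouse are paired: deviations from the group means of the same mouse at different times correlated with a median r of 0.139 over 90 pairs, and those of different mice of a genotype with a median r of -0.07. Deviations within a group sum to 0, which pushes r between different mice below 0 when r of the same mouse is above it. The value for different mice is therefore no separate evidence of pairing. Across genotypes the numbers share only a number (median r of -0.08 over 18 pairs). Libraries of a group differed beyond counting noise (chi-square per degree of freedom of at least 9.13). The WT T0 pairs had 17.0, 148 and 121, and the highest pair of any other group, in Loxp T9, had 41.9. Both high WT T0 values are of pairs that hold replicate 2. Precision at low counts is limited by reads, and intervals cover counting error only where a floor of 3 reads is given. Protein sequences were not used here.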

Additional observations from a re-analysis of the deposited data

Results flagged for a closer look

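In 20 cases the rise of a member over T0 passed the test of the difference between genotypes at a single LPS time (edgeR, adjusted p under 0.05), all with a smaller rise in Loxp than in WT cells. The values are Loxp minus WT differences of log2 fold changes, and all share the T0 libraries. For Gbp5 they were -1.90 at T2.5, -1.81 at T4, -1.65 at T6, -1.70 at T9 and -1.85 at T13 (adjusted p 0.00393 to 0.0322). For Gbp2 they were -1.0 at T2.5, -0.99 at T4, -0.86 at T9 and -1.05 at T13 (adjusted p 0.00292 to 0.0234). For Gbp3 they were -0.91 at T2.5, -0.87 at T4, -0.76 at T9 and -1.04 at T13 (adjusted p 0.0012 to 0.0221). For Gbp4 they were -2.14 at T2.5, -2.05 at T4 and -1.90 at T13 (adjusted p 0.0156 to 0.0273). For Gbp6 they were -0.98 at T2.5, -1.03 at T4, -0.91 at T9 and -1.02 at T13 (adjusted p 0.0104 to 0.03). Gbp7, Gbp8 and Gbp9 passed at no single time.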

How the results depend on the processing

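Of 3048 values of a member under an alternative, 2994 kept their direction and side of the threshold where they were called, 28 were no longer past it, 26 came past it and 0 turned round. The count of 6 members higher in Loxp cells at T0 became 0 in the fit to the T0 libraries alone and 3 with limma on log2(RPKM + 1); it was 6 to 7 without each mouse. The interaction count of 3 became 5 without a filter, 6 with a block for the mouse, 6 with DESeq2 and 0 to 3 without each mouse. The replicate block by number left the interaction at 3 (143 genes against 94 in all) and T0 at 6, and lowered the genes called on summed counts to 180, against 1259. The Loxp step from T4 to T6 became 8 in the fit to its own groups, against 5. Of the 5 genes nearest in pattern, 3 recurred over 36 libraries and 0 with Spearman's rho. The interferon core was in 4 promoters, or 3 within 150 bases of the start. The causes were not tested.

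Over all genes, the calls between genotypes varied more: without each mouse 642 to 2401 at T0 (main 1501), 134 to 822 at T2.5 (612), 237 to 926 at T4 (763), 470 to 1387 at T6 (1224), 678 to 1794 at T9 (1639), 97 to 659 at T13 (486), 51 to 1841 on summed counts (1259) and 14 to 72 for the interaction (94). The steps varied as follows: 3278 to 5694 for Loxp T2.5 to T4 (4973), 3073 to 5534 for Loxp T4 to T6 (4707), 1173 to 3338 for Loxp T6 to T9 (2510), 2304 to 3959 for WT T4 to T6 (3880) and 797 to 1814 for WT T6 to T9 (1743). Other settings that moved a count by over 1.5 times gave 9 at T0 and 563 at T9 with only the groups compared, 735 at T13, 2073 on summed counts and 328 for the interaction with DESeq2, 399 at T2.5 with limma, 158 for the interaction without a filter and 335 with a block for the mouse. Without the Loxp T9 replicate 2 library, T9 had 783 and the Loxp step from T6 to T9 1566. Library totals shifted the median log2 fold change of all genes by -1.04 to -0.62 between LPS and T0 and by -0.19 to -0.02 between genotypes, and lowered the share of higher calls between genotypes to 32.5% at T0 (against 58.5%), 16.7% at T2.5 (37.3%), 15.5% at T4 (43.4%), 10.4% at T6 (53.7%) and 14.4% at T9 (56.7%). They also lowered the genes higher under LPS, to 2278 at T2.5 in Loxp cells, against 4551, and to 2324 in WT cells, against 4515; all members kept their T0 calls and their calls of LPS against T0. DESeq2 size factors lowered it to 27.1% at T2.5 (against 37.3%), 29.8% at T4 (43.4%) and 43.6% at T6 (53.7%). Gene comparisons by protein sequence were not run. Gbp8 and the T0 values of Gbp4 are limited by depth.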
